A study of Mus musculus with 235 samples.

Results

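Liver RNA of C58/J mice, an inbred strain that the submitters coded as free of isoniazid-induced steatosis, was measured on 8 of the 235 arrays of a survey of 31 strains. The members were chosen by their titles, which name the strain and the treatment, and no measured value entered the choice. Of the 8 female C58/J mice, 4 received isoniazid at 100 mg/kg and 4 received sterile water (vehicle), by gavage each day for 3 days. They were 8 to 10 weeks old at the start, and the left liver lobe was frozen 24 h after the final dose, with 1 array per animal. The other 30 strains were treated in the same way and gave 227 arrays. Of these strains 17 carried the code without steatosis and 13 the code with it. In 9 strains some isoniazid animals had died and were left out by the submitters, whereas all 4 isoniazid animals of C58/J were measured. The steatosis code belongs to a strain and not to an animal. The tissue is bulk liver, in which fewer cells of a type and less RNA per cell cannot be told apart. The study's question, as far as the labels give it, was how livers of different strains respond to isoniazid. Here the C58/J response was separated into what C58/J had in common with the mean of the other 30 strains and what was its own.

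Isoniazid is an antibiotic against tuberculosis that can injure the liver. Hepatocytes acetylate it through N-acetyltransferases and hydrolyse acetylated products with amidases, and hydrazines formed on the way are reactive. Isoniazid and hydrazine also bind pyridoxal phosphate, the active form of vitamin B6 and the cofactor of aminotransferases, cysteine synthesis enzymes and heme synthesis.

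All levels below are log2 expression values, so a difference of 1 is a doubling. A gene counted as called when the limma p-value, adjusted over 18146 genes, was under 0.05, and the verbs rose and fell are used for called genes. The C58/J effect is the mean of the isoniazid arrays minus the mean of the vehicle arrays. A change was named own where this effect differed from the mean effect of the other 30 strains. The liver identity of the arrays was plain from hepatocyte genes. Their mean level over 12 genes, among them albumin, lay between 12.53 and 12.78 on the 8 arrays, and each of the 8 arrays correlated best with its own strain.

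Of the 8 arrays, 1 vehicle array stood apart by transcripts of another tissue and 1 by its spread. The array of vehicle animal 1 carried skeletal muscle transcripts. Acta1, the actin of skeletal muscle fibres, measured 10.98, 4.00, 4.23 and 3.46 in vehicle animals 1 to 4. Its levels in isoniazid animals 1 to 4 were 3.81, 4.13, 3.79 and 3.81. Myh1, a fast myosin heavy chain, was at 9.78 in vehicle animal 1 and between 2.04 and 2.74 on the other 7 arrays, and Ckm, the muscle creatine kinase, was at 8.32 there and between 4.18 and 5.02 elsewhere. The mean of the 10 muscle markers was 7.49 in vehicle animal 1 and lay between 3.50 and 3.80 on the other 7 arrays. With all arrays 7 of the 10 markers were called lower under isoniazid in C58/J and 0 higher. Without that animal 0 of the 10 passed (limma). The Acta1 effect was then -0.01, with an adjusted p of 0.986. These muscle genes are not counted among the findings below, although they stay in the totals with all arrays.

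**Figure D1:**
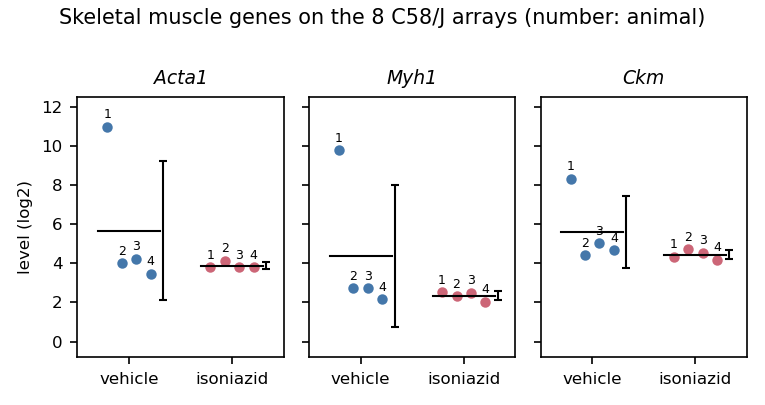
Levels (log2) of 3 skeletal muscle genes on the 4 vehicle and 4 isoniazid arrays of C58/J. Points are animals with their numbers, lines are group means and bars are SDs. Vehicle animal 1 lies at 10.98, 9.78 and 8.32, above all other arrays.

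The array of vehicle animal 3 had a narrower spread of values, with an SD of 2.17 against 2.26 to 2.35 on the other 7 C58/J arrays. It belongs to a set of 21 such arrays in the whole series. A narrow spread compresses high levels downward and low levels upward. Counts are therefore given with all arrays, without vehicle animal 1, without vehicle animal 3 and without both. These 2 arrays are called the doubted arrays. Further animals differed from the rest in gene groups. Isoniazid animal 3 had a mean level of 9.42 over 21 unfolded protein response genes, against 8.65 to 8.92 on the other 7 arrays. Vehicle animal 4 had a mean of 11.09 over 16 glucocorticoid targets, against 9.96 to 10.77 on the other 7. Some genes were called in all of 9 fits, namely the one with all arrays and the 8 that leave out 1 C58/J array each.

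With all arrays 893 genes were called for the C58/J effect, or 4.92% of the genes tested. Of these 658 (3.63% of the genes tested) rose and 235 (1.3%) fell, and 496 (2.73%) changed at least 1.5-fold. The number of calls was 565 without vehicle animal 1 (433 higher, 132 lower), 537 without vehicle animal 3 (286 higher, 251 lower) and 267 without both (122 higher, 145 lower). The excess of rises over falls was therefore not present without both arrays. All 9 fits called 288 genes, of which 213 were higher and 75 lower under isoniazid. With 893 calls C58/J ranked 5 of 31 strains. Levels of the vehicle and isoniazid groups did not overlap for 1315 genes, or 7.25%. The C58/J arrays were scanned on 5 dates, and 1 of these dates held both treatments, with vehicle animal 1 and isoniazid animals 1 and 4. The effect within that date had the same sign as the C58/J effect for 892 of the 893 called genes and for 14892 of all 18146 genes. These 3 arrays also enter the C58/J effect, and the vehicle side is the array that carried muscle transcripts, so the signs are no independent check.

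The own response comprised 422 genes, or 2.33% of those tested, with 296 effects (1.63%) above and 126 (0.694%) below the mean of the other 30 strains. C58/J ranked 4 of 31 strains by this number. It was 208 without vehicle animal 1 (151 above, 57 below), 287 without vehicle animal 3 (141 above, 146 below) and 113 without both (40 above, 73 below), so the balance of directions turned without vehicle animal 3. The 9 fits called 108 own genes throughout, 77 above and 31 below. When whole strains served as replicates, 40 genes, or 0.22%, were called, with 20 (0.11%) in each direction. Of the own genes named below, Map3k6, Sec14l4, Lpl, Wipi1, Zmynd12, Sult1b1, 4931408D14Rik and Etfbkmt passed this test, the last pair at the edge of the threshold. The others did not, with adjusted p from 0.0592 for Ptgfr to 0.626 for Prodh2. Against the 17 other strains without steatosis alone the number was 438, and against the 13 with steatosis it was 402.

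The response that the other 30 strains had in common reappeared in part. In those strains 3621 genes, or 20%, were called for the mean effect with the strain as the replicate. Among them 2534 had the same sign in C58/J, 463 were called there in the same direction, and 21 were called in the opposite direction. Over all 18146 genes 9955 had the same sign. By direction, 373 of the 1794 genes (9.89% of those tested) that rose elsewhere rose in C58/J, and 90 of the 1827 (10.1%) that fell elsewhere fell. These numbers were 163 and 109 without vehicle animal 3, and 76 and 59 without both doubted arrays. Measured over the common genes, the C58/J effect had a slope of 0.82 on the mean effect and ranked 17 of 31 strains. The slope was 1.34 over the genes that rose elsewhere, where 1485 of 1794 had the same sign. It was 0.41 over the genes that fell elsewhere, where 1049 of 1827 had the same sign. All of these slopes include the doubted arrays and were not computed without them, although the counts of shared rises and falls moved without vehicle animal 3. Effects in C58/J across the 3621 genes correlated with the mean effects at Pearson r = 0.52, a description across genes, which are not independent.

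Csad, which makes hypotaurine on the way to taurine, fell in C58/J as elsewhere. Vehicle animals 1 to 4 had Csad at 10.26, 10.67, 9.81 and 9.80, and isoniazid animals 1 to 4 had 8.21, 8.24, 9.08 and 8.32. The groups did not overlap, with isoniazid animal 3 nearest to the vehicle level. The fall was 1.67 ± 0.40 (SE, n = 4 and 4; adjusted p = 0.00332, limma), and the mean effect elsewhere was -1.38. Dnase2a, the acid DNase of lysosomes, fell by 1.66 ± 0.38 (adjusted p = 0.0014) and had a mean effect of -1.22 elsewhere. D630004K10Rik, a gene with little known of its function, fell by 1.64 ± 0.30 (adjusted p = 3.1e-05) against -0.74 elsewhere. On the rising side Pgm3, an enzyme of hexosamine synthesis, rose by 1.01 ± 0.26 (adjusted p = 0.00649), close to the mean of 0.89. Apoc2, the activator protein of lipoprotein lipase, rose by 0.74 ± 0.13 (adjusted p = 1.53e-05) beside 0.61 elsewhere. Without vehicle animals 1 and 3 together, Dnase2a and Pgm3 were no longer called (adjusted p = 0.14 and 0.12).

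Other genes that moved strongly elsewhere were not called in C58/J, and several had the highest vehicle level of the 31 strains. A link between the vehicle level and the effect was not tested. Cyp2b10, a cytochrome P450 that the xenobiotic receptor CAR induces, measured 12.86, 13.02, 13.40 and 13.54 in vehicle animals and 13.09, 13.40, 13.01 and 13.24 in isoniazid animals. The groups overlapped throughout. The vehicle mean of the other 30 strains was 8.70 (range 5.21 to 12.73), so that C58/J vehicle livers lay above every other strain. The C58/J effect was -0.02 ± 0.49 (adjusted p = 0.991), against a mean effect of 0.90, and the difference of -0.92 was not called (adjusted p = 0.377). Apoa4, an apolipoprotein of triglyceride-rich particles, was likewise highest of 31 in vehicle livers, at 13.48 to 13.62 against a mean of 12.02. Its effect was 0.51 ± 0.25 (adjusted p = 0.281) and the mean effect elsewhere 0.93. The lipid droplet gene Cidec also had the highest vehicle level. It measured 8.39, 8.26, 9.42 and 9.54 under vehicle and 10.65, 10.34, 8.57 and 10.36 under isoniazid. Isoniazid animal 3 lay among the vehicle animals, and the effect of 1.08 ± 0.37 was not called (adjusted p = 0.0653), with a mean of 0.99 elsewhere. Among 18 other settings of the fit the Cidec effect ran from 0.85 to 1.55 and was called in 4. Scd1, the desaturase that makes oleate, had an effect of -0.70 ± 0.45 (adjusted p = 0.459) against -1.52 elsewhere. Alas1, the rate-limiting enzyme of heme synthesis, had 0.51 ± 0.32 (adjusted p = 0.434) against 0.81, and Acot1, an acyl-CoA thioesterase, -0.94 ± 0.40 (adjusted p = 0.187) against -1.18. None of these differences from the other strains was called. The 12 largest mean effects each way elsewhere make 24 genes. Of these, 20 had the same sign in C58/J and 4 were called in that direction, as were 12.79% of all common genes. For 17 of the 24 the C58/J effect was smaller than the mean effect or of opposite sign. As own 0 of the 24 were called, beside 2.33% of all genes. A p-value above the threshold does not show that C58/J and the other strains responded alike.

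**Figure D2:**
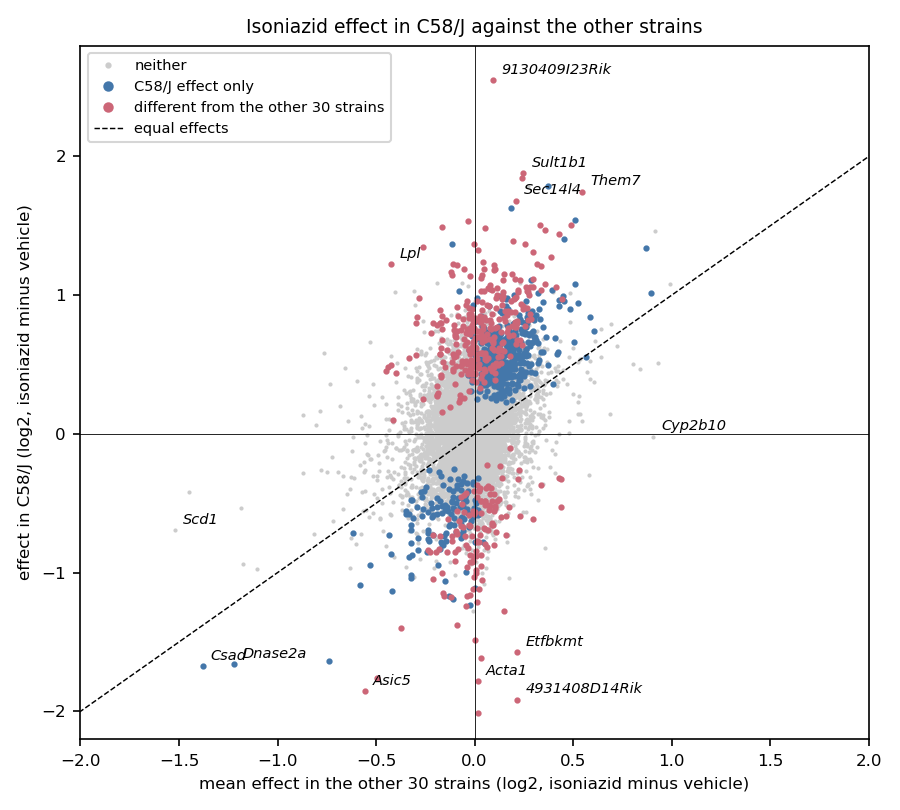
C58/J effect against the mean effect of the other 30 strains for 18146 genes, both as log2 differences of isoniazid minus vehicle. Red points were called as own (422), blue points for the C58/J effect alone, and the dashed line marks equal effects. Csad and Dnase2a lie near the line, while Sult1b1, Sec14l4 and 4931408D14Rik lie far from it.

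The 12 largest own increases included Sult1b1 and Sec14l4. Sult1b1, a cytosolic sulfotransferase that conjugates phenols and thyroid hormones, measured 4.19, 4.52, 3.27 and 4.16 in vehicle animals 1 to 4. Isoniazid animals 1 to 4 had 5.96, 5.99, 6.08 and 5.62. All isoniazid values exceeded all vehicle values, and vehicle animal 3 was the lowest. Sult1b1 rose by 1.88 ± 0.27 (3.67-fold; adjusted p = 1.38e-07, limma), and the mean effect elsewhere was 0.25 (range -0.38 to 0.98). The difference of 1.63 ± 0.28 passed (adjusted p = 2.59e-05), also without both doubted arrays (adjusted p = 0.026). The vehicle level in C58/J was the lowest of 31 strains, 4.03 on average against 6.57.

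Sec14l4, a member of a family of lipid-binding proteins, had the smallest p-value among the rising genes. Its vehicle levels were 5.04, 5.72, 5.02 and 5.84, and its isoniazid levels 7.09, 7.48, 6.61 and 7.17. The groups did not overlap. It rose by 1.68 ± 0.16 (adjusted p = 1.93e-15) and by 1.47 ± 0.17 more than in the other strains (adjusted p = 1.76e-11), where effects ran from -0.12 to 0.61. It was also called with strains as replicates (adjusted p = 9.1e-05). The own difference was still called without both doubted arrays (adjusted p = 0.00033).

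Them7, a member of the thioesterase superfamily, measured 6.25, 6.71, 6.07 and 7.07 in vehicle animals and 8.33, 8.37, 8.06 and 8.32 in isoniazid animals. No vehicle value reached the isoniazid range. Them7 rose by 1.75 ± 0.19 (adjusted p = 1.92e-13), and its effect was above 0 in all of the other 30 strains, with a mean of 0.54. The own difference was 1.20 ± 0.19 (adjusted p = 3.69e-06). It fell to an adjusted p of 0.047 without both doubted arrays.

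The promoters of Sult1b1 and Them7 are shown as examples of own increases with entries in the promoter table, which lists none for Sec14l4 by that name. Each run covers 250 bases before to 50 bases after an annotated start, from RefSeq on GRCm38.p6, written 5′ to 3′ on the gene's strand. Capitals mark AGGTCA or its reverse complement TGACCT, the core that many nuclear receptors of the liver bind. Sult1b1 has 2 annotated starts, at chr5:87536173-87536472 (minus strand) and chr5:87538146-87538445 (minus strand), and Them7 has 1, at chr2:105224092-105224391 (plus strand).
Sult1b1 first window: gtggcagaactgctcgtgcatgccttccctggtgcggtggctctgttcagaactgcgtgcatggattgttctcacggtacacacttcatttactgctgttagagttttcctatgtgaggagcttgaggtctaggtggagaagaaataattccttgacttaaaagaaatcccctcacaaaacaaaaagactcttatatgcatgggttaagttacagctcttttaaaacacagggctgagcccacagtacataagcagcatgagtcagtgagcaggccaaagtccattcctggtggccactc
Sult1b1 second window: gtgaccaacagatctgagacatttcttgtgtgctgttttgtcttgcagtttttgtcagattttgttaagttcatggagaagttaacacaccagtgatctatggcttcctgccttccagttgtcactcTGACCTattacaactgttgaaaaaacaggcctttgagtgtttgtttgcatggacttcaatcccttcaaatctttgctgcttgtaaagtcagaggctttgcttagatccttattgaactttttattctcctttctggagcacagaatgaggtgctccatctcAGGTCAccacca
Them7: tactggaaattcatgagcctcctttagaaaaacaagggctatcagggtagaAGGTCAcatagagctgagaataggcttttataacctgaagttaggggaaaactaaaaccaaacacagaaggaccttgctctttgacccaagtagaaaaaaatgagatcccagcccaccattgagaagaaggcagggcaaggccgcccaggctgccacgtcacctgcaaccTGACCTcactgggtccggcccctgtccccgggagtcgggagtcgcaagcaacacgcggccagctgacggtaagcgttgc
The first Sult1b1 window holds 0 matches, the second holds 2 and that of Them7 holds 2. The windows of Map3k6, another own increase, and of Etfbkmt, an own decrease, hold 1 match each and are not shown. Of the 77 own genes that were higher in all 9 fits, 62 matched the promoter table with 75 windows. The motif was in 14 of these, or 18.7%. It was in 14.2% of the 18065 windows of the genes on the array and in 16.3% of all 32851 windows of the table. The shares were not tested against each other, and a match describes letters and not a bound site.

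Further own increases concerned enzymes of small-molecule metabolism. Aldh1b1, a mitochondrial aldehyde dehydrogenase, measured 6.39, 6.65, 5.56 and 5.97 under vehicle and 7.62, 7.53, 7.74 and 7.72 under isoniazid, again without overlap. It rose by 1.51 ± 0.25 (adjusted p = 5.04e-06), its difference from the other strains was 1.18 ± 0.26 (adjusted p = 0.00154), and its vehicle level was the lowest of 31. This difference was not called without both doubted arrays (adjusted p = 0.12). Isoc2b, a protein with an isochorismatase fold, rose 2.84-fold (adjusted p = 9.2e-10), and its mean effect elsewhere was 0.49 on the log2 scale. Here the isoniazid level, between 7.55 and 7.81, was the highest of 31 strains, while the vehicle level ranked 10 from the top. Its own difference of 1.01 ± 0.19 (adjusted p = 0.000225) was not called without both doubted arrays (adjusted p = 0.056). Hsd3b3, a liver and kidney form of 3-beta-hydroxysteroid dehydrogenase, rose by 1.49 ± 0.28 (adjusted p = 6.82e-05) against 0.05 elsewhere, and its 2 probe sets gave 0.58 and 1.49. The Hsd3b3 effect was not called without both doubted arrays (adjusted p = 0.074). The gene with the largest effect, 9130409I23Rik, has no function assigned here. It measured 2.91, 3.75, 2.38 and 2.57 under vehicle and 5.42, 5.56, 5.33 and 5.50 under isoniazid, a rise of 2.55 ± 0.42 (adjusted p = 2.8e-06). These vehicle levels lay below the medians of the C58/J arrays (3.96 to 4.14), so the size of the rise is measured from a low level. The effect of 9130409I23Rik in other strains ranged from -1.96 to 1.43, and with strains as replicates it was not called (adjusted p = 0.2).

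Other own genes were high in C58/J under both treatments, and on these 2 animals departed from their groups. Map3k6, a kinase of the stress-activated cascade, measured 5.26, 5.31, 5.41 and 6.64 in vehicle animals 1 to 4 and 7.65, 7.63, 5.50 and 7.30 in isoniazid animals 1 to 4. Vehicle animal 4 was high and isoniazid animal 3 low, so the groups overlapped. The rise was 1.37 ± 0.23 (adjusted p = 5.04e-06), the mean effect elsewhere was 0.00 with an SD of 0.16 over strains, and the gene was called with strains as replicates (adjusted p = 7.2e-06). Wipi1, which binds phosphoinositides at forming autophagosomes, measured 7.40, 7.79, 8.14 and 8.63 under vehicle and 9.46, 9.87, 8.59 and 9.36 under isoniazid. Again vehicle animal 4 and isoniazid animal 3 met in the middle, and the rise was 1.33 ± 0.20 (adjusted p = 4.71e-07) against 0.02 elsewhere, with 6 probe sets between 0.61 and 1.59. Gadd45b, a stress gene that CAR also induces, measured 7.33, 7.57, 8.25 and 9.24 under vehicle and 9.02, 9.67, 9.57 and 9.51 under isoniazid. Vehicle animal 4 exceeded isoniazid animal 1. Gadd45b rose by 1.35 ± 0.34 (adjusted p = 0.00498), and the own difference was 1.61 ± 0.34 (adjusted p = 0.00117). Without vehicle animal 1 the Gadd45b effect was not called (adjusted p = 0.076), and neither value was called without both doubted arrays (adjusted p = 0.25 and 0.15). Leaving out vehicle animal 4 or isoniazid animal 3 gave the larger totals of 1163 and 1236 called genes for the C58/J effect.

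Zmynd12, a zinc finger protein, rose by 1.49 ± 0.28 (adjusted p = 9.13e-05) against -0.16 elsewhere, with isoniazid animal 3 at 3.34 inside the vehicle range of 2.62 to 3.92. Ptgfr, the prostaglandin F receptor, rose by 1.53 ± 0.33 (adjusted p = 0.000742), but its 5 probe sets ran from -0.09 to 1.53, and without both doubted arrays it was not called (adjusted p = 0.25). Pspc1, a paraspeckle protein, rose by 1.85 ± 0.38 (adjusted p = 0.00036), while its second probe set gave 0.09, and without both doubted arrays its own difference was not called (adjusted p = 0.21). Zc3h12d (1.79), Thrsp (1.63) and Arsg (1.54) were also among the 12 largest rises. Each of these was not called without vehicle animal 1 and also not without vehicle animal 3, with adjusted p between 0.053 and 0.25, and none of the 3 was own.

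**Figure D3:**
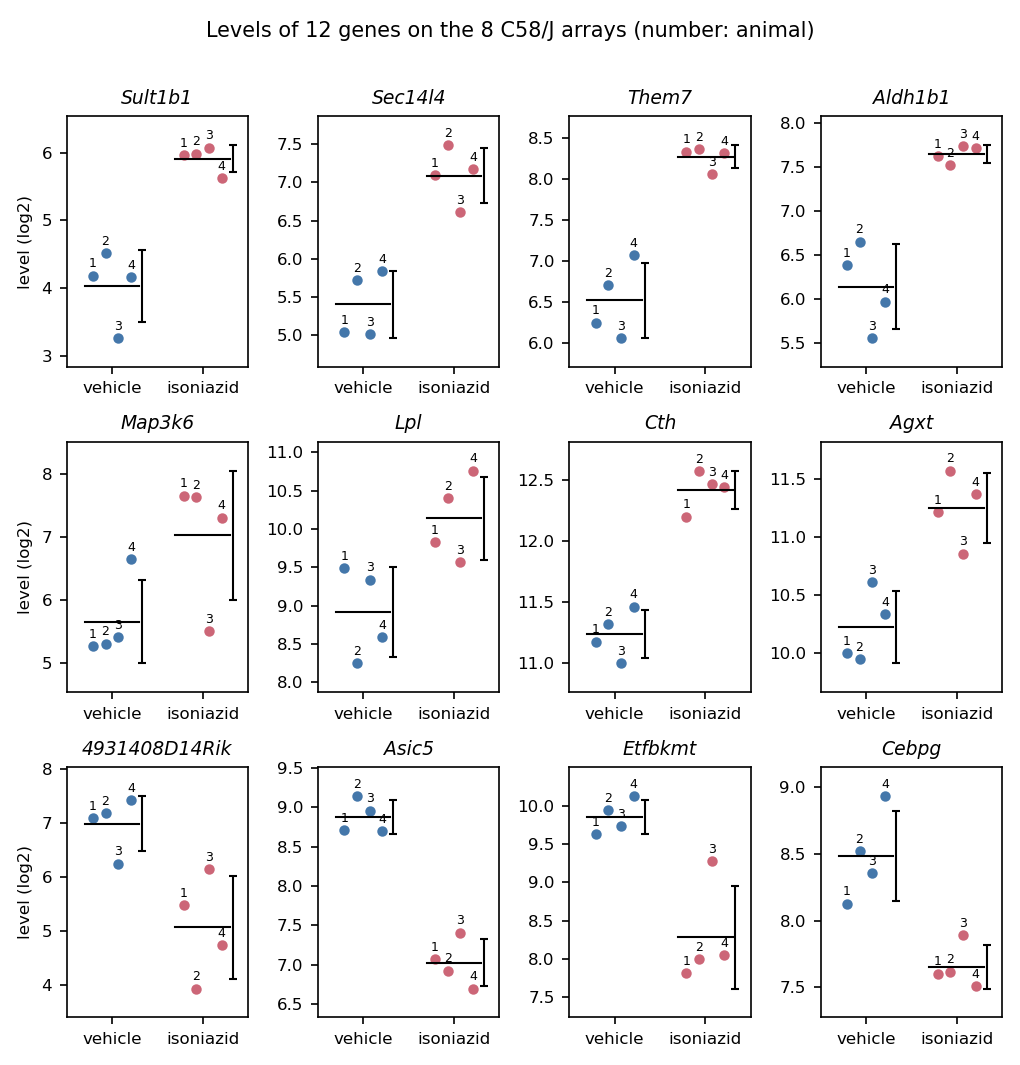
Levels (log2) of 12 genes on the 8 C58/J arrays. Points are animals with their numbers, lines are group means and bars are SDs. For Sult1b1, Sec14l4, Them7, Aldh1b1, Cth and Asic5 the groups stand apart, while isoniazid animal 3 lies near the vehicle animals for Map3k6 and Etfbkmt.

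Own decreases were seen in genes of different kinds. Asic5, a sodium channel of the acid-sensing family that bile acids activate, measured 8.71, 9.14, 8.96 and 8.69 under vehicle and 7.07, 6.92, 7.41 and 6.70 under isoniazid. The groups lay more than 1 log2 unit apart. Asic5 fell by 1.85 ± 0.27 (adjusted p = 1.1e-07), its effect was below 0 in 26 of the other 30 strains with a mean of -0.56. In PWK/PhJ Asic5 had a lower effect (-1.90) than in C58/J (-1.85), which ranked 30 of 31. The own difference was -1.29 ± 0.27 (adjusted p = 0.00103). 4931408D14Rik, with no function assigned here, measured 7.08, 7.18, 6.24 and 7.42 under vehicle and 5.47, 3.93, 6.13 and 4.73 under isoniazid. It fell by 1.92 ± 0.32 (adjusted p = 5.04e-06) against 0.22 elsewhere, and the groups did not overlap. Etfbkmt, the methyltransferase of the electron transfer flavoprotein, measured 9.63, 9.94, 9.73 and 10.12 under vehicle and 7.81, 8.00, 9.27 and 8.05 under isoniazid. The groups were separate, although isoniazid animal 3 was near the vehicle level. Etfbkmt fell by 1.57 ± 0.28 (adjusted p = 1.53e-05) against 0.22 elsewhere, but its second probe set gave -0.10. Both genes kept own calls without the doubted arrays (adjusted p = 3.3e-05 for 4931408D14Rik and 0.00015 for Etfbkmt).

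Tmem33, a membrane protein of the endoplasmic reticulum, fell by 0.87 ± 0.14 (adjusted p = 6.81e-07) against 0.03 elsewhere, and its isoniazid level was the lowest of 31 strains. Its 5 probe sets disagreed, with effects from -0.87 to 0.27. Cebpg, a partner of stress-responsive C/EBP and ATF4 transcription factors, measured 8.13, 8.52, 8.36 and 8.93 under vehicle and 7.60, 7.62, 7.89 and 7.51 under isoniazid. All isoniazid values were lower, and Cebpg fell by 0.83 ± 0.13 (adjusted p = 2.39e-06), own by -0.65 ± 0.14 (adjusted p = 0.00103). Celsr1, an adhesion receptor of planar cell polarity, fell by 1.49 ± 0.34 (adjusted p = 0.00173), with isoniazid animal 3 at 5.34 among vehicle values of 4.16 to 5.88. Dixdc1, a regulator of Wnt signalling, fell by 1.40 ± 0.29 (adjusted p = 0.000312), and Spc25, a kinetochore protein, by 1.27 ± 0.32 (adjusted p = 0.00432), with its other probe set at 0.49. In all of the 9 fits, Asic5, 4931408D14Rik, Etfbkmt, Tmem33, Cebpg and Spc25 were called as own, and Celsr1 and Dixdc1 were not. With strains as replicates Asic5, Tmem33, Cebpg and Spc25 were not called as own (adjusted p = 0.41, 0.205, 0.161 and 0.282).

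**Figure D4:**
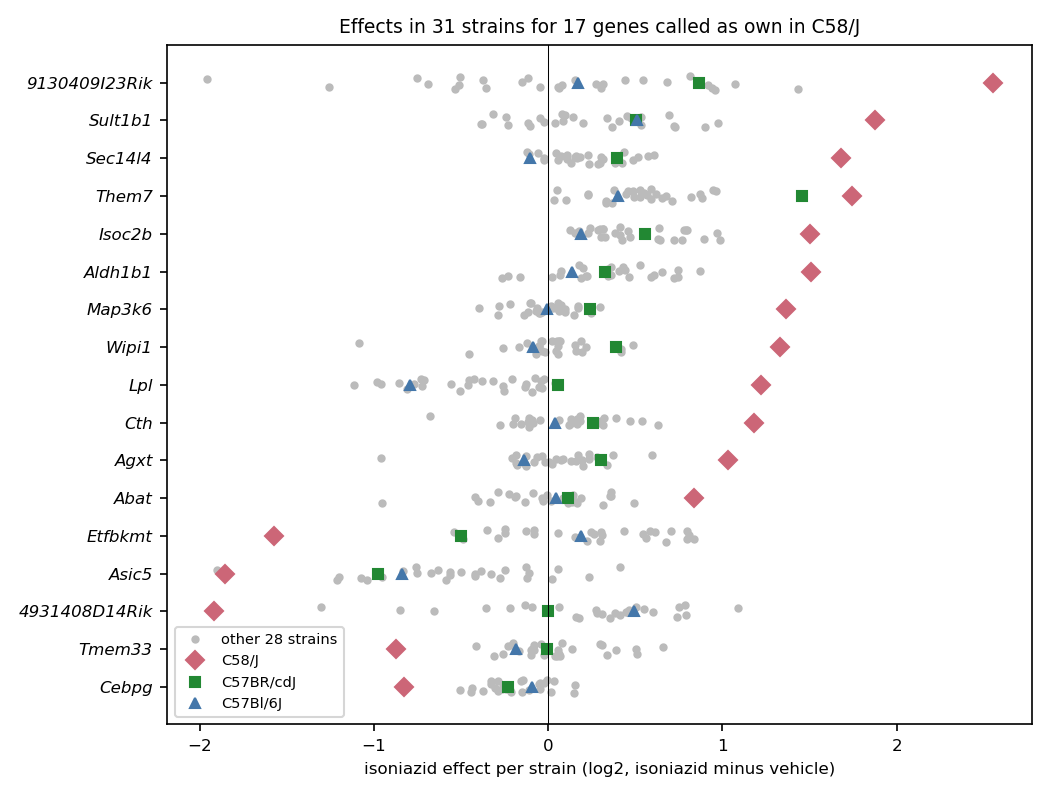
Isoniazid effect (log2, isoniazid minus vehicle) in each of 31 strains for 17 genes called as own in C58/J. Each point is a strain, and C58/J, C57BR/cdJ and C57Bl/6J are marked. C58/J holds the highest effect for each of the 12 upper genes, and in C57BR/cdJ the Them7 effect of 1.46 comes next to it.

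Across the 296 own genes with higher effects, the C58/J vehicle level was the lowest of 31 strains for 89, compared with 1193 of all 18146 genes. Among the 77 called in all 9 fits it was the lowest for 37. The median of the C58/J vehicle level minus the mean of the other strains was -0.50 for these 77, and under isoniazid it was 0.20. The same vehicle arrays enter both the level and the effect, so a low level and a large rise are not separate observations.

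Enzymes that use vitamin B6 were among the genes that rose. Of 25 measured members of this list 7 rose, 1 fell (Csad) and 5 were own and higher, where over all genes 3.63% rose, 1.3% fell and 1.63% were own and higher. The list median was 0.32 against -0.01 over all genes. In the mean of the other strains 11 of the 25 rose, with a median of 0.09, where 9.89% of all genes rose. Cth, which makes cysteine from cystathionine, measured 11.17, 11.32, 11.00 and 11.46 under vehicle and 12.20, 12.57, 12.46 and 12.44 under isoniazid. The groups lay apart by more than 0.5, and Cth rose by 1.18 ± 0.18 (2.27-fold; adjusted p = 9.25e-07) against 0.10 elsewhere. Agxt, which detoxifies glyoxylate in peroxisomes, measured 9.99, 9.95, 10.61 and 10.34 under vehicle and 11.21, 11.57, 10.86 and 11.37 under isoniazid. All isoniazid values were higher, the rise was 1.03 ± 0.16 (adjusted p = 9.6e-07) and the mean elsewhere was 0.03. Agxt2, its mitochondrial counterpart, rose by 1.06 ± 0.15 (adjusted p = 1.08e-07), and rose in the mean of the other strains as well, by 0.41. Abat, which breaks down GABA, measured 10.17, 10.39, 9.96 and 9.98 under vehicle and 10.94, 10.84, 11.05 and 11.03 under isoniazid. Its groups did not overlap, and Abat rose by 0.84 ± 0.16 (adjusted p = 6.56e-05) against 0.00 elsewhere, although its second probe set gave -0.08. The vehicle levels of Agxt, Agxt2 and Abat were each the lowest of 31 strains, and that of Cth was second lowest. Without both doubted arrays 5 of the 25 rose and 3 were own and higher, beside 122 and 40 of all 18146 genes. The own calls of Cth, Agxt and Abat were retained in that fit (adjusted p = 0.019, 0.0004 and 0.024, limma). With strains as replicates none of these 3 was called as own (adjusted p = 0.0828, 0.152 and 0.384).

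The neighbouring amino acid pathways rose in part. On the list of amino acid breakdown and the urea cycle 4 of 20 rose and 0 fell, with 3 own, against 3.63% rising and 1.63% own and higher over all genes. The list median was 0.20, and 8 of the 20 rose in the mean of the other strains, where 9.89% of all genes rose. Aass, the first enzyme of lysine breakdown, measured 11.32, 11.34, 11.92 and 11.81 under vehicle and 12.44, 12.84, 12.05 and 12.39 under isoniazid, without overlap, and rose by 0.83 ± 0.17 (adjusted p = 0.000421) against -0.03 elsewhere. Bckdhb, a subunit of the branched-chain keto acid dehydrogenase, rose by 0.47 ± 0.11 (adjusted p = 0.00384). Prodh2, which oxidises hydroxyproline, rose by 0.61 ± 0.14 (adjusted p = 0.00184), with vehicle animal 3 at 8.55 below the other vehicle animals at 9.32 to 9.43, and was not called without that animal (adjusted p = 0.14). Slc25a15, the mitochondrial ornithine carrier, rose by 0.51 ± 0.15 (adjusted p = 0.0205) beside 0.25 elsewhere. Of the 20, 1 rose without both doubted arrays, beside 122 of all 18146 genes.

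On the list of serine and one-carbon metabolism 5 of 14 rose and 0 fell, with 1 own, and 5 rose in the mean of the other strains. Over all genes 3.63% rose, 1.63% were own and higher, and 9.89% rose in the mean of the other strains. Bhmt, which remethylates homocysteine with betaine, measured 13.23, 13.36, 13.43 and 12.26 under vehicle and 13.84, 13.81, 13.93 and 13.98 under isoniazid. Vehicle animal 4 was the lowest, and no values overlapped. Bhmt rose by 0.82 ± 0.14 (adjusted p = 1.03e-05), and the own difference was 0.55 ± 0.14 (adjusted p = 0.0144). Leaving out vehicle animal 4 brought the effect to 0.55 and the own difference to 0.28, and the latter was then not called. Dmgdh, which takes the next methyl group from dimethylglycine, rose by 0.58 ± 0.13 (adjusted p = 0.000717), and Shmt2, the mitochondrial serine hydroxymethyltransferase, by 0.55 ± 0.14 (adjusted p = 0.00765). Neither was own, with mean effects elsewhere of 0.26 and 0.20. Of the 14, 3 rose without both doubted arrays, beside 122 of all 18146 genes.

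Genes of lipid handling moved in both directions. Lpl, the lipase that releases fatty acids from lipoproteins and that adult hepatocytes make little of, measured 9.49, 8.25, 9.34 and 8.59 under vehicle and 9.83, 10.40, 9.57 and 10.76 under isoniazid. All isoniazid values were higher, the nearest pair by a narrow margin. Lpl rose by 1.22 ± 0.35 (adjusted p = 0.0186), whereas it was lower under isoniazid in 28 of the other 30 strains, with a mean of -0.42, and the own difference was 1.65 ± 0.36 (adjusted p = 0.00136). Its own call was retained without both doubted arrays (adjusted p = 0.0019). Lpl is also made by fat tissue, muscle and macrophages. The mean of 9 measured fat tissue markers lay between 5.45 and 5.67 under vehicle and between 5.57 and 5.71 under isoniazid, and that of 16 macrophage markers between 6.93 and 7.40 and between 7.15 and 7.69. Their part in the Lpl difference was not tested. Acss2, which activates acetate for lipid synthesis, measured 6.93, 7.39, 6.76 and 7.31 under vehicle and 8.11, 7.92, 8.10 and 8.37 under isoniazid. The groups did not overlap, and Acss2 rose by 1.03 ± 0.18 (adjusted p = 1.28e-05) against 0.05 elsewhere. Its own difference was 0.98 ± 0.18 (adjusted p = 0.000144), or an adjusted p of 0.11 without both doubted arrays.

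On the list of lipid droplets and triglyceride turnover 2 of 25 rose and 2 fell, beside 3.63% and 1.3% of all genes. Elsewhere 6 of the 25 rose and 3 fell, beside 9.89% and 10.1% of all genes. Dgat1, an enzyme of the last step of triglyceride synthesis, rose by 0.63 ± 0.16 (adjusted p = 0.00645), and Lipe, a lipase of lipid droplets, by 0.43 ± 0.14 (adjusted p = 0.0427). Dgat2, the other enzyme of that step, fell by 0.48 ± 0.11 (adjusted p = 0.000892), and Fabp1, the fatty acid binding protein of hepatocytes, fell by 0.74 ± 0.19 (adjusted p = 0.00592), with isoniazid animal 3 at 13.40 among the vehicle values of 13.17 to 13.69. Without both doubted arrays 0 of the 25 were called, beside 267 of all 18146 genes. On the fatty acid synthesis list 2 of 19 rose and 0 fell, and on the list of fatty acid oxidation and PPAR alpha targets 1 of 26 rose and 0 fell. Among 14 lipoprotein genes Lpl and Apoc2 rose. Over all genes 3.63% rose.

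On the list of CAR and PXR targets 4 of 17 rose and 0 fell, against 3.63% and 1.3% of all genes, with Gadd45b, Cyp2b9, Cyp2c55 and Aldh1a7 called. The list median was 0.27, and 8 of the 17 rose in the mean of the other strains, where 9.89% of all genes rose. Of the 17, 1 rose without both doubted arrays, beside 122 of all 18146 genes. Cyp2c55, a cytochrome P450, measured 4.52, 4.66, 4.63 and 4.81 under vehicle and 6.18, 5.18, 5.60 and 5.60 under isoniazid, without overlap, and rose by 0.98 ± 0.22 (adjusted p = 0.00098). Cyp2b9 rose by 0.98 ± 0.28 (adjusted p = 0.017), with vehicle animal 3 at 7.06 and the other vehicle animals at 8.90 to 9.10. Without that animal Cyp2b9 was not called (adjusted p = 0.52). Aldh1a7, an aldehyde dehydrogenase, rose by 0.85 ± 0.21 (adjusted p = 0.00518) beside 0.59 elsewhere. Of 15 genes of isoniazid metabolism 1 rose and 1 fell. Ces2a, a carboxylesterase, rose by 0.71 ± 0.18 (adjusted p = 0.00671), and Aadac, an amide and ester hydrolase of the endoplasmic reticulum, fell by 0.44 ± 0.09 (adjusted p = 0.000177) with an own difference of -0.38 ± 0.09 (adjusted p = 0.00341). Of the N-acetyltransferase genes, Nat2 had an effect of 0.06 ± 0.16 (adjusted p = 0.888, limma). For Nat1 the effect of -0.59 ± 0.20 was not called (adjusted p = 0.063), while the difference from the other strains, whose mean effect was 0.23, was -0.82 ± 0.20 (adjusted p = 0.00814). Without both doubted arrays Aldh1a7 and Aadac were called (adjusted p = 0.028 and 0.00041), and Cyp2c55, Ces2a and the Nat1 difference were not (adjusted p = 0.057, 0.088 and 0.094).

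Iron and acute phase genes gave a few further calls. Slc39a14, an importer of iron and zinc, rose by 1.04 ± 0.23 (adjusted p = 0.00122), with vehicle animal 4 at 9.12 above isoniazid animal 3 at 8.46. Hfe, the protein of hereditary iron overload, measured 7.34, 7.43, 7.44 and 7.59 under vehicle and 8.23, 8.26, 8.00 and 8.26 under isoniazid. Its groups did not overlap, and it rose by 0.74 ± 0.14 (adjusted p = 6.58e-05), with an own difference of 0.57 ± 0.14 (adjusted p = 0.00783). Slc40a1, the iron exporter ferroportin, fell by 0.95 ± 0.15 (adjusted p = 2.1e-06), and in every one of the other 30 strains its effect was also below 0, with a mean of -0.53. Serpina3n, an acute phase protease inhibitor, rose by 1.03 ± 0.20 (adjusted p = 0.000135), and Fgb, a fibrinogen chain, by 0.28 ± 0.08 (adjusted p = 0.0287), and both were own. These were the called genes among 27 of the acute phase list. Baat, which joins bile acids to taurine or glycine, rose by 0.52 ± 0.14 (adjusted p = 0.00789). It was 1 of 2 rises among 22 bile acid genes, of which 1 fell. Over all genes 3.63% rose, 1.3% fell and 1.63% were own and higher. Without both doubted arrays the effects of Hfe, Slc40a1 and Serpina3n were called (adjusted p = 0.014, 0.00027 and 0.024), and those of Slc39a14, Fgb and Baat were not (adjusted p = 0.14, 0.26 and 0.25).

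Many subunits of the proteasome and of oxidative phosphorylation rose, and their number depended on both doubted arrays. Of 26 proteasome subunits 12 rose and 0 fell, with Psmc1 at 0.54 ± 0.13 (adjusted p = 0.00249), and 25 of the 26 rose in the mean of the other strains. Of 29 subunits of oxidative phosphorylation 11 rose and 0 fell, with Ndufs1 of complex I at 0.51 ± 0.11 (adjusted p = 0.000555), and 25 rose elsewhere. No subunit of either list was own. Over all genes 3.63% rose in C58/J, 9.89% rose in the mean of the other strains and 2.33% were own. Without vehicle animal 3 the counts of rising subunits were 0 and 3, without vehicle animal 1 they were 6 and 6, and without both they were 0 and 1. Of all 18146 genes 286, 433 and 122 rose in these fits, in the same order. The list medians moved less, from 0.33 with all arrays to 0.25 without vehicle animal 3 for the proteasome, and from 0.20 to 0.14 for oxidative phosphorylation. With all arrays 26 of 26 proteasome subunits and 25 of 29 of oxidative phosphorylation had effects above 0.

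Interferon-induced genes fell in the other strains and were not called in C58/J. Of 20 such genes 17 fell in the mean of the other 30 strains, with a list median of -0.33, whereas in C58/J 0 were called in either direction and the list median was 0.21. Over all genes 4.92% were called in C58/J, and 10.1% fell in the mean of the other strains. A list of 20 genes with 0 calls is therefore near the C58/J share of all genes. Rsad2, an antiviral enzyme, measured 6.78, 7.29, 6.66 and 7.19 under vehicle and 7.96, 6.49, 6.64 and 7.09 under isoniazid, with wide overlap. Its effect was 0.06 ± 0.29 (adjusted p = 0.947) against -0.81 elsewhere, a difference of 0.87 ± 0.30 that was not called (adjusted p = 0.106). Ifit3 was the 1 gene of the list called as own, with a difference of 0.90 ± 0.26 (adjusted p = 0.0306). Among the markers of other liver cells, 0 of 16 macrophage genes and 0 of 14 endothelial genes were called for the C58/J effect. All 14 endothelial markers had effects above 0, with a list median of 0.37 in C58/J and -0.07 elsewhere and a median own difference of 0.49. Their mean level lay between 6.40 and 6.90 under vehicle and between 6.91 and 7.19 under isoniazid. Of the 16 macrophage markers 14 had effects above 0, with medians of 0.16 in C58/J and -0.22 elsewhere and a median own difference of 0.43. The part of these cells in the other results was not tested. Stab2, a scavenger receptor of sinusoidal endothelium and a marker on that list, was own at 0.88 ± 0.21 (adjusted p = 0.00525). Neither Ifit3 nor Stab2 was called as own without both doubted arrays (adjusted p = 0.59 and 0.25). The levels of both genes in single animals overlapped between the groups.

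**Figure D5:**
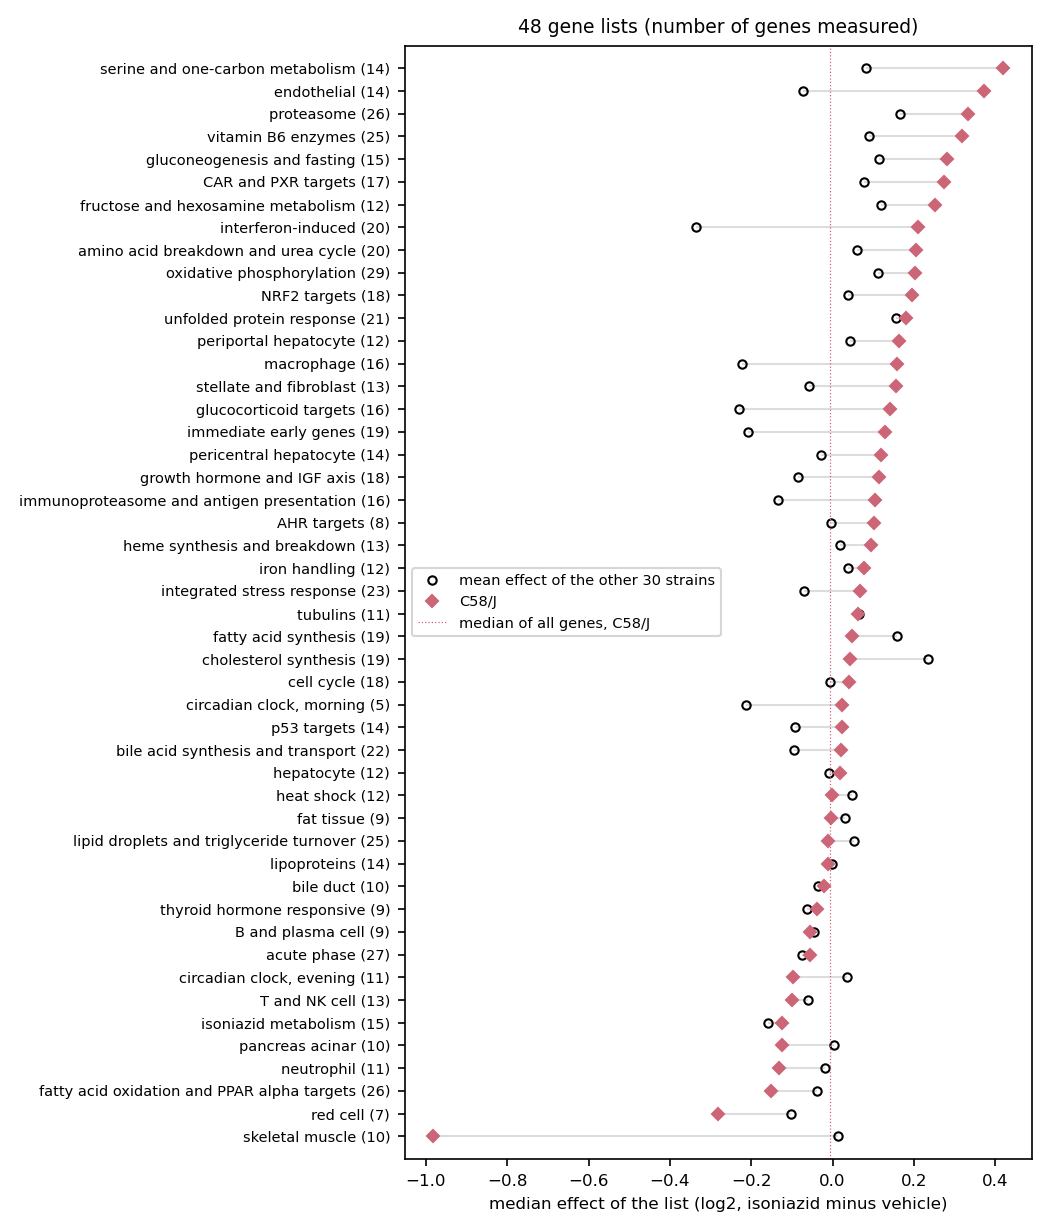
Median effect (log2, isoniazid minus vehicle) of 48 gene lists in C58/J (diamonds) and in the mean of the other 30 strains (circles), with the number of measured genes in brackets. Serine and one-carbon metabolism lies highest at 0.42, interferon-induced genes lie at 0.21 against -0.33, and the skeletal muscle list lies lowest, which rests on vehicle animal 1.

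C58/J was also compared with C57Bl/6J and C57BR/cdJ, which as background share ancestry with it and also carried the code without steatosis, each with 4 vehicle and 4 isoniazid arrays. The effect differed from that of C57Bl/6J for 465 genes, or 2.56%, with 356 (1.96%) higher and 109 (0.601%) lower in C58/J. This number was 177 without vehicle animal 1, 142 without vehicle animal 3, 26 without both, and 178 with scan date as a term. The array of C57Bl/6J isoniazid animal 3, with an SD of 2.14, is also among the 21 narrow arrays. Without all 21 the number was 158 (95 higher, 63 lower). Cholesterol synthesis genes were among the lower ones. Of 19 measured 11 had a lower effect in C58/J and 0 a higher one, and the list's median effect was 0.04 in C58/J and 1.17 in C57Bl/6J. In the mean of the other 30 strains this median was 0.24. Against that mean 1 of the 19 was own and lower in C58/J, beside 0.694% of all genes. Fdps, which makes farnesyl diphosphate, measured 6.34, 6.63, 6.35 and 6.79 in C58/J vehicle animals and 5.91, 5.20, 6.01 and 5.72 in C58/J isoniazid animals. In C57Bl/6J it measured 7.42, 7.42, 7.39 and 7.41 under vehicle and 9.34, 9.31, 9.93 and 9.41 under isoniazid. The isoniazid animals lay below the vehicle animals in C58/J and above them in C57Bl/6J. The effects were -0.82 and 2.08, and their difference was -2.90 ± 0.57 (adjusted p = 0.00106). By itself the Fdps effect in C58/J was not called (adjusted p = 0.274, limma). Cyp51, the lanosterol demethylase, differed by -2.68 ± 0.63 (adjusted p = 0.0078) and Sqle, squalene epoxidase, by -2.52 ± 0.71 (adjusted p = 0.032), with C58/J effects of -0.35 and 0.10 that were not called. The number of lower cholesterol genes was 6 without vehicle animal 1, 5 without vehicle animal 3, 3 without both and 7 with scan date as a term. Fdps was called in each of these. The cholesterol genes were not counted without the narrow array of C57Bl/6J isoniazid animal 3, which had the highest Fdps level.

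Against C57BR/cdJ the effect differed for 7 genes, or 0.0386%, with 6 (0.0331%) higher and 1 (0.00551%) lower in C58/J. The SE of such a difference equals that of the comparison with C57Bl/6J. Sec14l4 was the gene with the smallest p-value, at a difference of 1.28 ± 0.23 (adjusted p = 0.00199). Dhx58, an RNA sensor related to RIG-I, differed by 1.29 ± 0.28 (adjusted p = 0.0287), Cpn2, a subunit of plasma carboxypeptidase N, by 1.05 ± 0.23 and Tmem33 by -0.86 ± 0.19 (both adjusted p = 0.0296). For genes that led the own response the difference from C57BR/cdJ was often not called. Them7 had an effect of 1.46 in C57BR/cdJ and 1.75 in C58/J, and the difference of 0.29 had a 95% interval of -0.23 to 0.80. Pspc1 had 1.34 and 1.85, with an interval of -0.55 to 1.58 for the difference. Sult1b1 had 0.50 and 1.88, and the difference of 1.37 (interval 0.61 to 2.14) was not called after adjustment (adjusted p = 0.16). The number of called genes was 2 without vehicle animal 1, 16 without vehicle animal 3 (4 higher, 12 lower) and 0 without both. Without all 21 narrow arrays, among them that of C57BR/cdJ isoniazid animal 1, it was 32 (4 higher, 28 lower). The direction therefore turned with these arrays.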

How the data were processed

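Per the submitters' processing notes, the authors ran RMA from Affymetrix Power Tools (versions not given in the sources used here) and deposited its output as log2 intensities of the probe sets, from 1.15 to 14.65. RMA removes background, makes the distributions of arrays alike at the level of probes and combines the probes of a set, although 21 arrays had a narrower spread in the deposited values. A change shared by all genes is thereby lost, and differences at low levels are compressed. As arrays hold no counts, precision here depends on how many there are.

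Of 44721 probe sets, 34717 carried 1 gene symbol in the platform annotation, 872 carried several, 9072 were not listed and 60 were controls. Of the 34717, 34514 were matched by Entrez number to a mouse gene table of GRCm38.p6. The 18146 genes were each represented by the probe set with the highest mean, which mattered for 8949 genes. A fit of 62 groups (31 strains by treatment) to all 235 arrays was made with limma 3.58.1 in R 4.3.3, with 173 residual degrees of freedom. It gave the C58/J effect and its differences from the mean effect of the other 30 strains, from C57Bl/6J and from C57BR/cdJ. All p-values are two-sided and adjusted by Benjamini-Hochberg over the 18146 genes, and SEs come from this fit. The groups are animals of 1 inbred strain, and nothing given says whether they shared a litter or cage.

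The 78 named genes were picked from a longer list, and not every gene of that list is described. It held the 12 largest changes each way for the C58/J effect, its difference from the other strains and the common response. It also held up to 3 each way against either related strain, and a fixed set. Each of the 48 gene lists added up to 4 members for the C58/J effect and up to 4 for the difference from the other strains. Of 822 list entries 749 were measured. Members, lists and tests were chosen with earlier results of these data known. The fit was tested on simulated data for the difference from the other strains, over 18146 genes with 200 changed. It recovered 32.8% of changes of 0.5, 89.6% of changes of 1 and 98.5% of changes of 2 on the log2 scale, and 3.3% of its calls were false. The simulation gave every strain the same vehicle level and, apart from the changed genes, the same effect. Its noise was independent between genes and arrays, and it held no doubted arrays. The share of false calls in the measured data can therefore differ.

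Control values of the 8 arrays were compared by exact two-sided permutation tests, for which 0.0286 is the smallest p with 4 against 4. Of 6 values, the Gapdh control differed most, by 0.332 (exact p = 0.0286, adjusted over 6 values p = 0.172), and the actin, pyruvate carboxylase and transferrin receptor ratios of 3′ to 5′ probe sets did not pass (exact p = 0.4, 0.286 and 0.6). Animals with the same number in both groups did not deviate together (correlations -0.114, -0.3, 0.031 and -0.072), so numbers were not taken as pairs.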

Additional observations from a re-analysis of the deposited data

Results flagged for a closer look

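The groups of 4 C58/J animals were checked for a single animal far from the other 3, by the share of the group's range that lies in the gap to the nearest animal. The threshold was Dixon's critical value for 4 animals. Of 156 groups (78 named genes, 2 treatments) 18 exceeded it, and chance alone flags about 5% of groups. Isoniazid animal 3 was the distant one in 7 of them, namely Them7 (0.839), Map3k6 (0.838), Pspc1 (0.878), Etfbkmt (0.839), Csad (0.871), Cidec (0.852) and Hfe (0.882). Vehicle animal 1 was distant for Acta1 (0.898), Myh1 (0.925) and Ckm (0.848). Vehicle animal 3 was distant for Prodh2 (0.870), Cyp2b9 (0.905) and Cpn2 (0.839), and vehicle animal 4 for Map3k6 (0.892) and Serpina3n (0.926). The remaining groups were Cyp51 in vehicle animal 2 (0.867), and Acta1 (0.945) and Acot1 (0.859) in isoniazid animal 2.

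Effects in C58/J differed from those in other strains by a test of the difference itself (limma) for 422 genes against the mean of the other 30 strains, 465 genes against C57Bl/6J and 7 against C57BR/cdJ. On the log2 scale the difference from the other 30 strains was 2.46 for 9130409I23Rik, 1.65 for Zmynd12, 1.65 for Lpl, 1.63 for Sult1b1, 1.61 for Gadd45b, 1.61 for Pspc1, 1.57 for Ptgfr, 1.47 for Sec14l4, 1.43 for Hsd3b3, 1.37 for Map3k6 and 1.31 for Wipi1. It was -2.13 for 4931408D14Rik, -1.79 for Etfbkmt, -1.49 for Celsr1, -1.42 for Spc25 and -1.29 for Asic5. For Myh1 (-2.03) and Acta1 (-1.80) it rested on vehicle animal 1.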

How the results depend on the processing

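The limits are the 4 animals per group, the 2 doubted vehicle arrays and the fit's spread, which is shared with all strains. With the 8 C58/J arrays alone 51 genes were called for the C58/J effect, 33 of them as part of the common response. Asking also for a 1.5-fold change left 496 and 245, and 54 of the 3621 genes of the other 30 strains. Without vehicle animals 1 and 3, a setting chosen after seeing the data, the C58/J effect had 267 calls, the common response 135, the own response 113, and the comparisons with C57Bl/6J and C57BR/cdJ 26 and 0. The Acta1 effect and its own difference then became 0.15 and 0.14, neither called. With strains as replicates the own response had 40 calls. Without all 21 narrow arrays it had 634 (331 higher), and the comparisons with C57Bl/6J and C57BR/cdJ 158 and 32. Scan date as a term gave 178 against C57Bl/6J, and centring on the array median gave 2 against C57BR/cdJ. Leaving out 1 C58/J array gave 515 to 1236 calls for the C58/J effect, 272 to 563 for the common response, 202 to 714 for the own response, 142 to 1019 against C57Bl/6J and 2 to 61 against C57BR/cdJ. For the own response the numbers without vehicle animals 1 to 4 were 208, 463, 287 and 657, and without isoniazid animals 1 to 4 were 221, 239, 714 and 202. The cause was not tested. The other settings without a block kept each total within 1.5 times its value, among them the probe set mean, dim genes left out, other eBayes settings, and strains without deaths. Counts by direction moved more. Median centring gave 141 falls for the C58/J effect and 73 lower own effects, and leaving out all narrow arrays gave 652 rises and 522 falls for the C58/J effect.

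With the animal number within strain as a replicate block the calls were 791 for the C58/J effect, 378 for the own response, 350 against C57Bl/6J and 4 instead of 7 against C57BR/cdJ. The numbers are not shown to pair the animals. Of 78 named genes, 63 were called for the C58/J effect and 15 of these in every setting, and of 47 called as own 8 were.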

Other observations

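Several lists that moved in the mean of the other 30 strains had few or no calls in C58/J (limma). Over all genes 4.92% were called in C58/J and 20% in that mean. Few or no calls in lists of this size are therefore near the C58/J share of all genes. Of 21 unfolded protein response genes 10 rose elsewhere and 0 were called in C58/J, while the list medians were close, at 0.16 and 0.18. Of 16 glucocorticoid targets 8 fell elsewhere and 0 were called in C58/J, with medians of -0.23 and 0.14. Of 19 immediate early genes 10 fell elsewhere and 0 were called in C58/J, with medians of -0.21 and 0.13. Of 23 genes of the integrated stress response 8 fell elsewhere and 1 fell in C58/J. Among 14 p53 targets 0 were called in C58/J, and among 18 cell cycle genes 0. The differences between these medians were not tested.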
